A study of Mus musculus with 3 samples.

Results

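The replication-dependent histone genes were read on 3 arrays of mouse long-term haematopoietic stem cells, the rare bone marrow cells that can rebuild the whole blood system. The genes were chosen by their current mouse symbols (H1f, H2ac, H2bc, H3c and H4c followed by a digit), and 38 of the 23185 named genes matched: 8 of the linker histone H1, 9 of H2A, 11 of H2B, 7 of H3 and 3 of H4. A further 32 genes with such symbols are not analysed here, and probe sets without a symbol in the annotation used, which may include histone genes, were not searched. The cells had been sorted as negative for lineage markers, Flk2 and CD48 and positive for ckit, Sca and CD150, and were held overnight in StemSpan SFEM medium. They were then given gamma radiation in culture, and mRNA was extracted 2 hours later. The 3 groups were unirradiated cells (0 Gy), cells given a low dose (0.02 Gy) and cells given a high dose (2.5 Gy), with 1 array each. The labels used here name no mouse strain, age, sex or number of animals. With 1 array per dose no difference below has a replicate check, no test could be run, and every difference is one between single arrays.

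The core histones H2A, H2B, H3 and H4 form the protein spool of the nucleosome, and H1 binds the DNA where it enters and leaves it. Most histone protein is made in S phase from clustered genes without introns, whose mRNAs end in a conserved stem-loop in place of a poly(A) tail and are destroyed quickly when DNA synthesis stops. The stem-loop is held by the protein SLBP, and NPAT, switched on by cyclin E and CDK2, drives transcription of the clusters. Long-term stem cells are known as mostly quiescent cells. In bulk RNA, fewer cells with such mRNA and less of it per cell cannot be told apart. The labelling used here starts from random primers along the transcript, so mRNAs without a poly(A) tail can be labelled.

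The symbols also take in 6 genes that are not standard replication-dependent histones. H1f10 is a somatic linker histone made outside S phase, H1f8 is the oocyte linker histone, H1f6 and H1f7 are linker histones of male germ cells, and H2ac1 and H2bc1 are the testis forms of H2A and H2B. Of these, H1f10 and H2ac1 passed the level minimum described below.

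Many histone genes are near-identical copies that encode the same or nearly the same protein, and how the authors' probe sets separate the copies is not given in the sources used here. Values of single copies are therefore uncertain, since a probe set may also take up RNA of another copy.

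Of the 38 genes, 29 lie on chromosome 13, 6 on chromosome 3, 2 on chromosome 6 and 1 on chromosome 15. Promoters were found for 34 of them in the RefSeq table (GRCm38.p6). The 130 bases before the start are shown for the 6 genes that were at least 2-fold apart in any comparison, since these carry the differences described below. Capitals mark the letters searched for, on either strand: the TATA box TATAAA, the CCAAT box CCAAT, which the factor NF-Y is known to bind, the octamer ATTTGCAT known from H2B promoters, and the Sp1 site GGGCGG.
H1f2 (chr13:23738677-23738806, plus strand): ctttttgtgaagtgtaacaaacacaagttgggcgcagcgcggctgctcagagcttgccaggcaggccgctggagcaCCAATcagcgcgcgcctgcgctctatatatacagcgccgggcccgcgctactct
H2ac20 (chr3:96220881-96221010, minus strand): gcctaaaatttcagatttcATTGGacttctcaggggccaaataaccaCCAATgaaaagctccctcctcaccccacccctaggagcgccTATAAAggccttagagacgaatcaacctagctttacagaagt
H2bc7 (chr13:23574208-23574337, minus strand): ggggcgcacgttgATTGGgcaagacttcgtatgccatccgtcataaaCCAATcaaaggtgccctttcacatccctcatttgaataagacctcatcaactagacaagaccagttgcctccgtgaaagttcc
H2bc8 (chr13:23571270-23571399, plus strand): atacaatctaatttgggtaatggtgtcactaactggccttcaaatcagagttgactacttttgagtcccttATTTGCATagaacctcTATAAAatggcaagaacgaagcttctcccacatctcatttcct
H2bc15 (chr13:21753946-21754075, plus strand): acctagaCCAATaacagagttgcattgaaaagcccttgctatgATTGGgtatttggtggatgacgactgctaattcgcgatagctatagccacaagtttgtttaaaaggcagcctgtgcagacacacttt
H4c9 (chr13:22041363-22041492, minus strand): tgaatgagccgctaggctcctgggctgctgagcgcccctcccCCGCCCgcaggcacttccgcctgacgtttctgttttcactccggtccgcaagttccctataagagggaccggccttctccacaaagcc

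Within the 250 bases before the start, the promoters of the 34 genes held the CCAAT box in 27, or 79.4%, against 34.5% of all 27025 promoters searched. All 9 H2A and all 9 H2B promoters held it, 6 of 8 H1 and 3 of 5 H3 promoters did, and none of the 3 H4 promoters did. The TATA box was in 20 of the 34, or 58.8%, against 12.97% of all promoters. The octamer was in 9 of the 34, or 26.5%, against 1.61% of all promoters, and those 9 were 5 H2A and 4 H2B genes. The Sp1 site was in 9 of the 34, or 26.5%, against 32.9% of all promoters, and all 3 H4 promoters held it. The letters TTTCCCGC and TTTGGCGC, known from E2F sites, were in none of the 34, against 0.929% and 0.437% of all promoters. Where 2 histone genes run apart from one short stretch, a match can belong to either gene. A match is only a description of the letters.

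**Figure D1:**
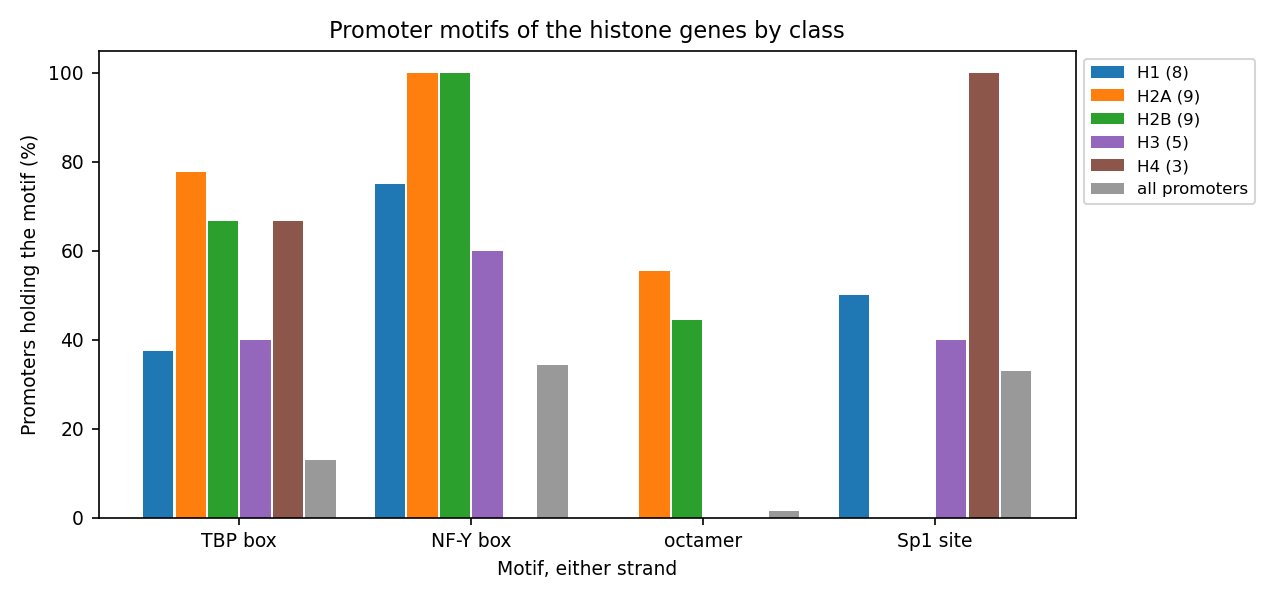
Share of promoters (percent) that hold each of 4 motifs on either strand within 250 bases before the start, for the H1, H2A, H2B, H3 and H4 genes and for all 27025 promoters (grey); the number of promoters is in the legend. The TBP box is TATAAA and the NF-Y box is CCAAT. All 9 H2A and all 9 H2B promoters hold the NF-Y box, against 34.5% of all promoters.

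Values are the authors' deposited log2 values. A gene was said to pass the level minimum when its mean over the 3 arrays was at least 4.55, the median of all named genes; 20 of the 38 histone genes passed and 18 did not. Of the 20, 18 were above the minimum on every array, while H2bc8 was just below it at 0.02 Gy and H3c10 at 0 Gy. Nothing in the deposited values says which genes were above background, and genes of low value may not have been. The plot of levels by class shows the 6 genes that were at least 2-fold apart.

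**Figure D2:**
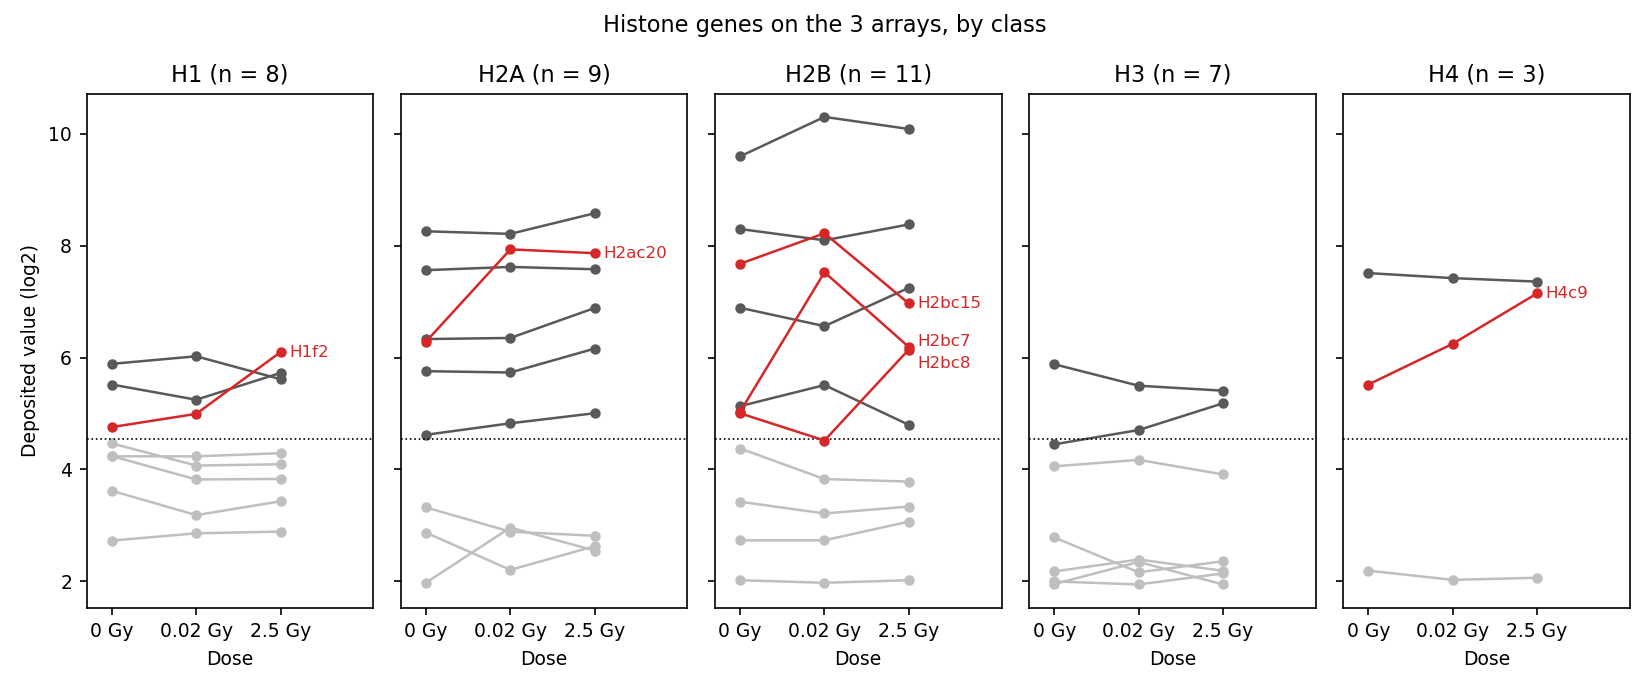
Deposited log2 value of each histone gene (vertical axis) at 0, 0.02 and 2.5 Gy (horizontal axis), in 5 panels by class; each line is 1 gene and each point 1 array. Red marks the 6 genes at least 2-fold apart in any comparison, dark grey the others past the level minimum, light grey those below it, and the dotted line is the minimum of 4.55. H2bc7 peaks at 0.02 Gy, H1f2 and H2bc8 stand out at 2.5 Gy, and H2ac20 is low at 0 Gy.

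On the array of cells given 2.5 Gy, 5 of the 38 histone genes were at least 2-fold higher than on the unirradiated array, and none was 2-fold lower: H4c9, H2ac20, H1f2, H2bc7 and H2bc8. The shares of all named genes past 2-fold in this comparison were 0.94% higher and 0.638% lower. All 5 were among the 20 histone genes past the level minimum, where the same shares over all genes were 1.15% and 0.578%. The median difference of the 20 was 0.37 on the log2 scale, against 0.02 for all 11593 genes past the minimum. Of the 20, 15 were above 0, or 75%, against 53.4% of all genes past the minimum. The 18 genes below the minimum did not share this shift, with a median of −0.11 against −0.06 for all genes below it. Of the 18, 6 were above 0, and that share was not counted over all genes below the minimum. With all 38 genes the median was 0.04, so the shift of the median rests on the genes past the minimum. With the minimum raised to the 75th percentile, 3 of the remaining 15 genes were at least 2-fold higher in place of 5, against 1.45% of all genes so kept.

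On the array of cells given 0.02 Gy, 2 of the 38 histone genes were at least 2-fold higher than on the unirradiated array, H2bc7 and H2ac20, and none was 2-fold lower. The shares over all named genes were 1.12% higher and 1.17% lower, and past the level minimum 1.33% and 1.14%. The median difference of the 20 genes past the minimum was 0.10, against 0.04 for all genes past it. Of the 20, 12 were above 0, or 60%, near the 54.2% of all genes past the minimum. Without H1f10 and H2ac1, which are not standard replication-dependent histones, the median of the other 18 was 0.04, against 0.04 for all genes. The histone median was −0.01 over all 38 genes and −0.01 after quantile normalization, so its direction depends on the processing. All genes had −0.018 and −0.004 at these 2 settings. Both comparisons share the unirradiated array, which was the lowest of the 3 for 9 of the 20 genes and the highest for 2. Over all genes past the minimum, it was the lowest for 37.4% and the highest for 29.6%.

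Set against the 0.02 Gy array, the 2.5 Gy array held 2 histone genes at least 2-fold higher, H2bc8 and H1f2, and 2 lower, H2bc7 and H2bc15. The shares over all named genes were 1.22% higher and 0.996% lower, and past the level minimum 1.44% and 1.06%. The median difference of the 20 genes was 0.23, against −0.00 for all genes past the minimum. Of the 20, 11 were above 0, or 55%, near the 49.4% of all genes past the minimum. The count of 2 higher was 1 when both arrays had to reach the minimum, since H2bc8 read 4.52 at 0.02 Gy. The share over all genes so kept was 0.93%. With the minimum raised to the 75th percentile the count was 0, against 1.45% of all genes so kept, and the median of the remaining 15 genes was −0.04. Without a minimum the median was 0.04 over the 38.

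Differences among the histone genes were wider than among genes at large. At 2.5 Gy against 0 Gy, the middle 50% of the 20 genes ran from −0.03 to 0.83 and had a width of 0.86, against a width of 0.42 for all genes past the minimum. The corresponding widths were 0.54 against 0.46 for 0.02 Gy against 0 Gy, and 0.61 against 0.43 for 2.5 Gy against 0.02 Gy. Irradiated arrays held higher values for bright genes in general, with a median difference of 0.14 at 2.5 Gy for all genes in the top 10% of level. The 10 histone genes of that range had a median of 0.34. The 5 between the 50th and 75th percentiles of level had a median of 0.73, against −0.02 for all genes there, and the 5 between the 75th and 90th had 0.21, against 0.04. The 0.73 is the difference of H3c10 itself. H3c10 and H2bc8, both in that range, passed the minimum by their means only. H3c10 lay below it at 0 Gy and H2bc8 at 0.02 Gy, so this range leans on genes kept for their higher arrays. At 0.02 Gy against 0 Gy the histone medians lay below those of all genes of like level in the upper ranges, with 0.04 against 0.19 in the top 10% and −0.02 against 0.07 between the 75th and 90th percentiles, and above it, with 0.24 against −0.04, between the 50th and 75th.

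**Figure D3:**
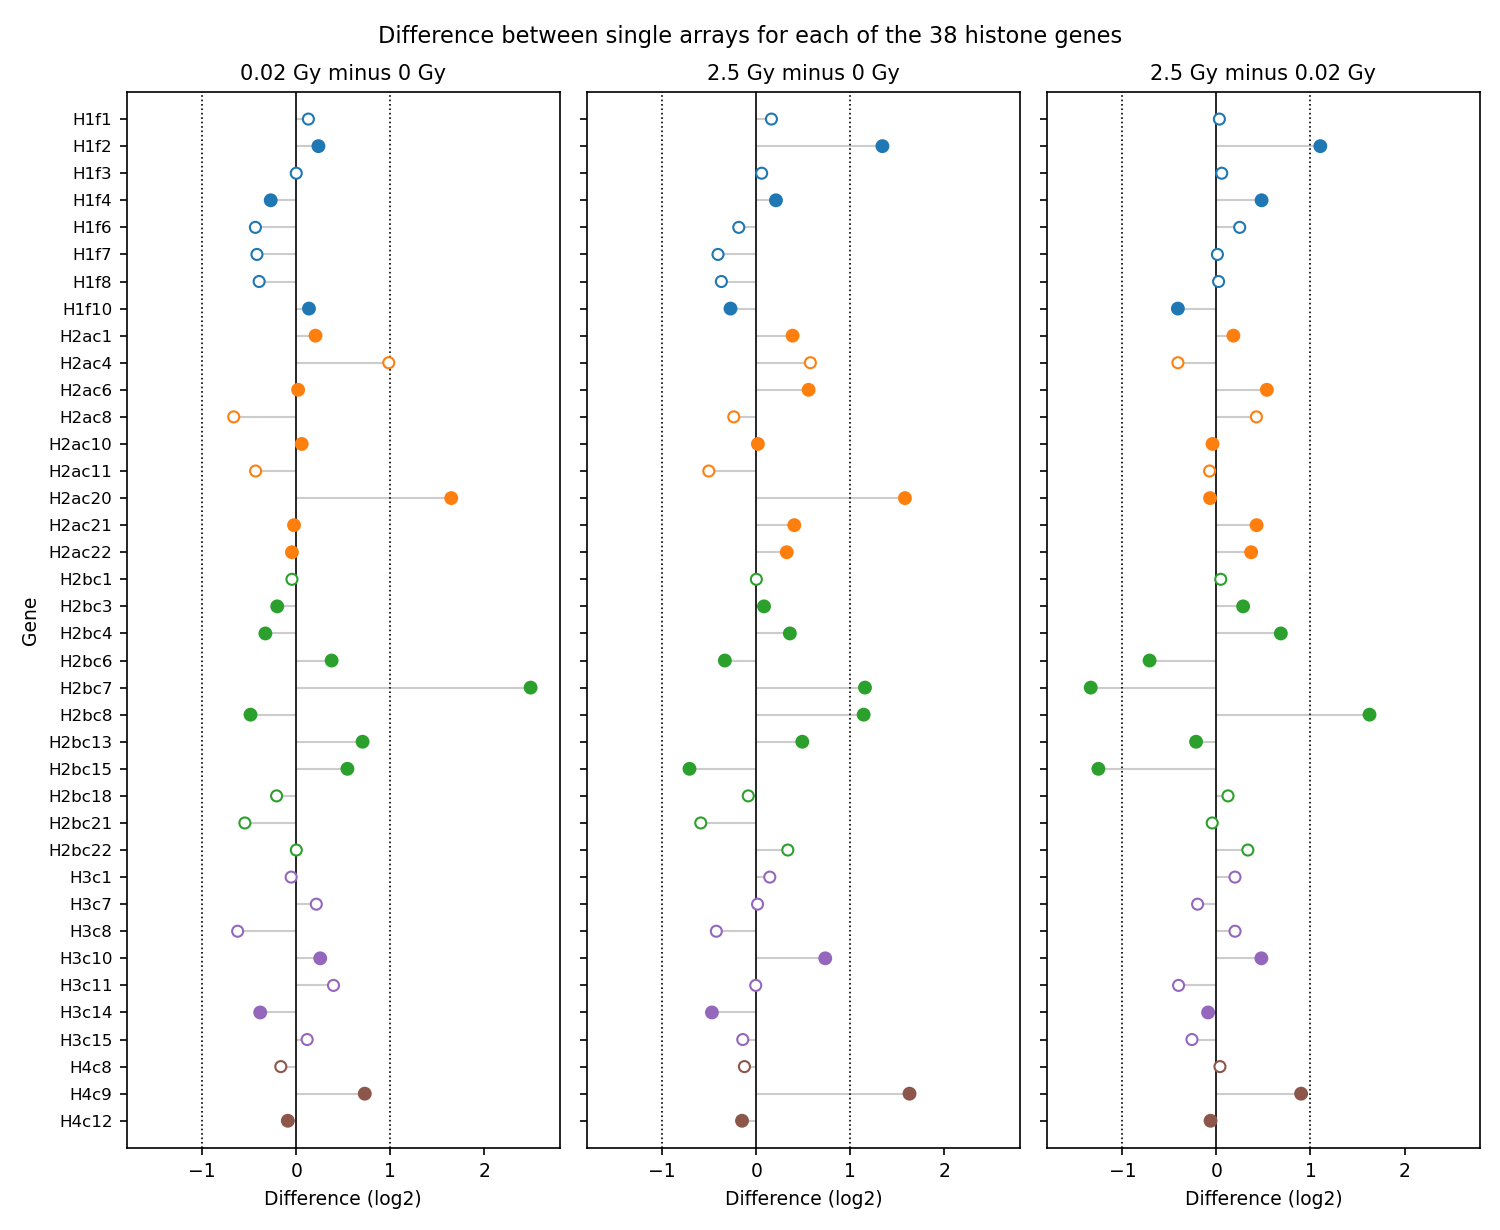
Difference in log2 value between 2 single arrays (horizontal axis) for each of the 38 histone genes (vertical axis), in 3 panels: 0.02 Gy minus 0 Gy, 2.5 Gy minus 0 Gy, and 2.5 Gy minus 0.02 Gy. Colours mark the class, filled points the 20 genes past the level minimum, open points the 18 below it, and dotted lines a 2-fold difference. In the middle panel 5 genes lie beyond the right dotted line and none beyond the left one.

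Among the linker histones, H1f2 stood apart on the 2.5 Gy array. It read 4.76 at 0 Gy, 4.99 at 0.02 Gy and 6.10 at 2.5 Gy. It was therefore 2.53-fold higher at 2.5 Gy than at 0 Gy and 2.15-fold higher than at 0.02 Gy, while the 2 lower arrays lay 0.24 apart. H1f4, another S phase linker histone, read 5.52 at 0 Gy, 5.25 at 0.02 Gy and 5.73 at 2.5 Gy. The replication-independent H1f10 was lowest at 2.5 Gy, with 5.89 at 0 Gy, 6.02 at 0.02 Gy and 5.61 at 2.5 Gy. H1f1 and H1f3, also S phase linker histones, lay below the minimum and differed from 0 Gy by 0.13 and 0.00 at 0.02 Gy and by 0.16 and 0.06 at 2.5 Gy. The germ-cell genes H1f6, H1f7 and H1f8 lay below the minimum too and were lower on both irradiated arrays, with differences of −0.43 to −0.39 at 0.02 Gy and −0.41 to −0.19 at 2.5 Gy against 0 Gy.

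Among the H2A genes, H2ac20 was low on the unirradiated array alone. It read 6.29 at 0 Gy, 7.94 at 0.02 Gy and 7.87 at 2.5 Gy, so it was 3.13-fold and 2.99-fold higher at the low and the high dose than at 0 Gy. The 2.5 Gy array differed from the 0.02 Gy array by −0.07. All 6 H2A genes past the minimum were above 0 at 2.5 Gy against 0 Gy, with a median of 0.39 and a range from 0.02 (H2ac10) to 1.58 (H2ac20). Of all genes past the minimum, 53.4% were above 0 in this comparison. H2ac6 read 6.33 at 0 Gy, 6.35 at 0.02 Gy and 6.89 at 2.5 Gy, a difference of 0.56 for 2.5 Gy against 0 Gy. H2ac22 read 8.26 at 0 Gy, 8.21 at 0.02 Gy and 8.58 at 2.5 Gy. H2ac21, a neighbour of H2ac20 on chromosome 3, read 5.76 at 0 Gy, 5.73 at 0.02 Gy and 6.16 at 2.5 Gy and so did not share the low unirradiated value of H2ac20. H2ac10 was nearly level, at 7.56, 7.62 and 7.58 in order of dose. The testis gene H2ac1 read 4.62, 4.83 and 5.01 in order of dose.

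The 3 other H2A genes lay below the minimum and moved apart. H2ac4 was 0.98 higher at 0.02 Gy than at 0 Gy, just short of 2-fold, and 0.57 higher at 2.5 Gy. H2ac8 was lower on both irradiated arrays, with differences of −0.66 at 0.02 Gy and −0.24 at 2.5 Gy, and so was H2ac11, with −0.43 at 0.02 Gy and −0.51 at 2.5 Gy.

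The H2B genes held both the widest difference and the opposite patterns. H2bc7 read 5.03 at 0 Gy, 7.53 at 0.02 Gy and 6.19 at 2.5 Gy. It was 5.63-fold higher at 0.02 Gy and 2.23-fold higher at 2.5 Gy than at 0 Gy, and 2.53-fold lower at 2.5 Gy than at 0.02 Gy, so no pair of arrays was within 2-fold. H2bc8 read 5.004 at 0 Gy, 4.52 at 0.02 Gy and 6.15 at 2.5 Gy, which is 2.21-fold higher at 2.5 Gy than at 0 Gy and 3.09-fold higher than at 0.02 Gy. H2bc15 read 7.68 at 0 Gy, 8.22 at 0.02 Gy and 6.97 at 2.5 Gy, so it was 2.39-fold lower at 2.5 Gy than at 0.02 Gy and differed from 0 Gy by −0.71. H2bc7 and H2bc8 are neighbours on chromosome 13, and they were highest on different arrays.

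The other H2B genes past the minimum stayed within 2-fold in all 3 comparisons. H2bc13 read 9.60 at 0 Gy, 10.31 at 0.02 Gy and 10.09 at 2.5 Gy. H2bc3 read 8.30 at 0 Gy, 8.10 at 0.02 Gy and 8.38 at 2.5 Gy. H2bc4 differed from 0 Gy by −0.33 at 0.02 Gy and by 0.36 at 2.5 Gy, while H2bc6 differed by 0.38 at 0.02 Gy and by −0.33 at 2.5 Gy. Thus H2bc4 and H2bc8 followed one order of arrays and H2bc6 and H2bc15 the reverse, in genes known to encode near-identical proteins. The 4 H2B genes below the minimum (H2bc1, H2bc18, H2bc21 and H2bc22) differed from 0 Gy by −0.55 to 0.00 at 0.02 Gy and by −0.59 to 0.33 at 2.5 Gy.

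Among the H3 genes only H3c10 and H3c14 passed the minimum, and they differed in direction. H3c10 read 4.45 at 0 Gy, 4.71 at 0.02 Gy and 5.18 at 2.5 Gy, a 1.66-fold higher value at 2.5 Gy than at 0 Gy. H3c14 read 5.88 at 0 Gy, 5.50 at 0.02 Gy and 5.41 at 2.5 Gy. H3c15, another H3 gene of the chromosome 3 cluster, lay below the minimum with 4.06, 4.17 and 3.91 in order of dose. H3c1, H3c7, H3c8 and H3c11 also lay below it, and at 2.5 Gy they differed from 0 Gy by −0.43 to 0.14.

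Of the H4 genes, which are known to encode the same protein, H4c9 was the one that differed most between the arrays. It read 5.52 at 0 Gy, 6.25 at 0.02 Gy and 7.15 at 2.5 Gy. That made it 3.09-fold higher at 2.5 Gy and 1.66-fold higher at 0.02 Gy than at 0 Gy, the widest difference of any histone gene at 2.5 Gy. H4c12 was nearly level, with 7.51 at 0 Gy, 7.42 at 0.02 Gy and 7.36 at 2.5 Gy. H4c8 lay below the minimum at 2.19, 2.03 and 2.06 in order of dose.

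H2A and H2B genes often run apart from one short shared promoter. By the RefSeq starts, 9 such pairs had starts within 1000 bases of each other, from 164 to 281 bases apart, and both genes were among the 38 in 3 pairs. H2ac22 and H2bc22, 240 bases apart, differed from 0 Gy by −0.05 and 0.00 at 0.02 Gy and by 0.32 and 0.33 at 2.5 Gy. H2bc1 and H2ac1, 281 bases apart, differed by −0.05 and 0.21 at 0.02 Gy and by 0.00 and 0.39 at 2.5 Gy. H2ac8 and H2bc8, 180 bases apart, both read lower at 0.02 Gy than at 0 Gy, with differences of −0.66 and −0.49, but at 2.5 Gy H2ac8 differed by −0.24 and H2bc8 by 1.14. In each of these pairs at least 1 gene lay below the level minimum. The partners of H2bc7 and H2bc15, H2ac7 and H2ac15, are not analysed here.

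By chromosome, the 16 genes of chromosome 13 past the minimum had a median of 0.37 at 2.5 Gy against 0 Gy, with 4 at least 2-fold higher. The 3 of chromosome 3 had a median of 0.40, with 1 at least 2-fold higher. Over all genes past the minimum the median was 0.02 and 1.15% were at least 2-fold higher.

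Related genes were read in 5 lists, and in none of them was a gene past the minimum 2-fold apart in any comparison. Since 0.578% to 1.44% of all genes past the minimum were so apart in a given comparison and direction, a count of 0 in lists of 9 to 25 genes is near the background. Medians at 0.02 Gy against 0 Gy were 0.28 for histone mRNA decay, 0.17 for chaperones and 0.11 for histone mRNA synthesis, each above the 0.10 of the 20 histone genes, while at 2.5 Gy all 5 lists had medians below their 0.37. Most variant histones are known to be made outside S phase too, from polyadenylated mRNAs. Of 14 listed, 11 were measured and 9 passed the minimum, among them H1f10, which is also one of the 38 histone genes, and their median at 2.5 Gy against 0 Gy was 0.09. H2ax, whose protein is phosphorylated at DNA breaks and whose mRNA exists in a stem-loop and a polyadenylated form, differed most: it read 5.03 at 0 Gy, 5.83 at 0.02 Gy and 5.95 at 2.5 Gy. H2az2, an H2A variant of promoters, differed by −0.52 at 0.02 Gy against 0 Gy, while the related H2az1, of higher level, differed by 0.33. H3f3a, which encodes the replacement H3 variant, and Macroh2a2, a macroH2A gene, lay below the minimum and differed by −0.57 and −0.61 at 2.5 Gy against 0 Gy. The related H3f3b and Macroh2a1 passed the minimum. H3f3b read 10.14, 10.14 and 10.23 in order of dose, and Macroh2a1 was 0.16 higher at 2.5 Gy than at 0 Gy.

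Of 23 listed genes for histone gene transcription and mRNA 3′ processing, 22 were measured and 19 passed the minimum, with a median of 0.13 at 2.5 Gy against 0 Gy. Slbp read 6.10 at 0 Gy, 6.21 at 0.02 Gy and 6.89 at 2.5 Gy, so it was 0.79 higher at 2.5 Gy than at 0 Gy. Sympk, which encodes the scaffold symplekin of the cleavage complex, and Hinfp, which encodes a transcription factor of H4 genes, were 0.48 and 0.55 higher at 2.5 Gy. Lsm11, a subunit of the U7 snRNP that guides cleavage, was instead highest at 0.02 Gy, with 4.77 at 0 Gy, 5.58 at 0.02 Gy and 4.603 at 2.5 Gy. Npat and Ccne2, a cyclin E gene, lay below the minimum and differed from 0 Gy by 0.10 or less at both doses.

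The 14 of 18 genes for histone mRNA decay past the minimum had a median of 0.28 at 0.02 Gy and 0.15 at 2.5 Gy against 0 Gy. Exosc10, the nuclear exosome nuclease, was 0.77 higher at 0.02 Gy and 0.70 higher at 2.5 Gy than at 0 Gy, and Lsm7, of the Lsm ring that binds mRNA tails, was 0.80 higher at 0.02 Gy. Tut7 and Tut4, uridylyltransferases, were 0.49 and 0.36 higher at 0.02 Gy. Among histone chaperones, 21 of 24 passed the minimum, and the medians were 0.17 at 0.02 Gy and 0.08 at 2.5 Gy. Asf1b, a chaperone for newly made H3 and H4, read 6.16 at 0 Gy, 6.08 at 0.02 Gy and 5.95 at 2.5 Gy. Rbbp4 and Rbbp7, which bind H4, were 0.60 and 0.52 higher at 2.5 Gy than at 0 Gy, as was the importin Ipo5, by 0.58, while Nap1l4, an H2A and H2B chaperone, was 0.53 higher at 0.02 Gy.

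Of 34 listed genes of DNA replication and S phase, 33 were measured and 25 passed the minimum, with medians of 0.08 at 0.02 Gy and 0.03 at 2.5 Gy against 0 Gy. Pcna, the sliding clamp of DNA polymerase, was highest at 0.02 Gy, with 8.19 at 0 Gy, 8.76 at 0.02 Gy and 8.11 at 2.5 Gy. Rfc4, a subunit of the clamp loader, also peaked there, at 4.94, 5.90 and 5.05 in order of dose. Cdt1, which loads the replicative helicase, was 0.61 higher at 2.5 Gy than at 0 Gy, and Gins2, a helicase subunit gene below the minimum, differed by −0.62 at 0.02 Gy.

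**Figure D4:**
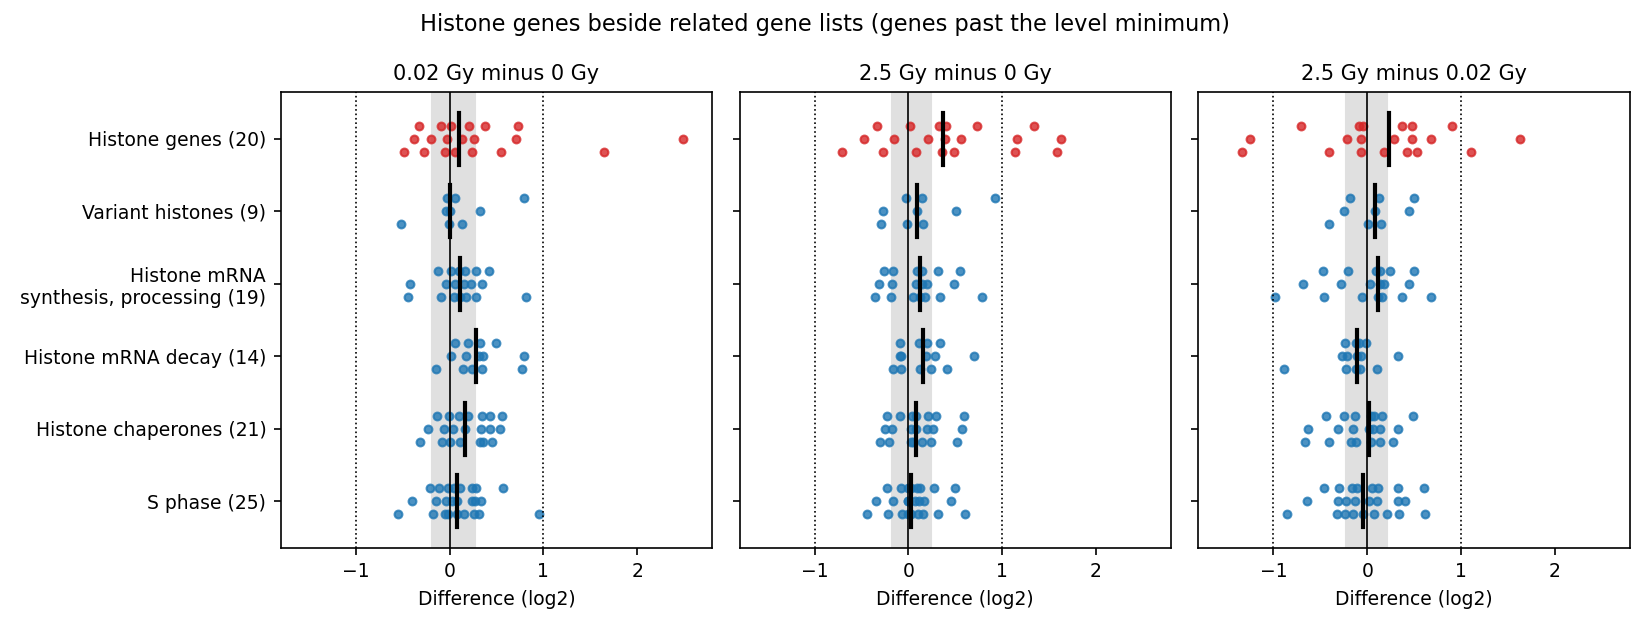
Difference in log2 value between 2 single arrays (horizontal axis) for genes past the level minimum of the histone genes (red) and of 5 related lists (blue), in 3 panels by comparison; the number of genes is beside each name. Points are genes, black bars the medians, grey bands the middle 50% of all 11593 genes past the minimum, and dotted lines a 2-fold difference. No point of the 5 related lists lies beyond a dotted line, where 0.578% to 1.44% of all genes past the minimum lie on either side.

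Markers of other cells were read on the same arrays. Stem cell and sort genes were measured for 9 of 10 symbols and all 9 passed the minimum, with none 2-fold apart. The 9 had medians against 0 Gy of 0.05 at 0.02 Gy and −0.07 at 2.5 Gy, with 6 and 4 above 0. Of all genes past the minimum, 54.2% and 53.4% were above 0. Kit, the ckit of the sort, read 8.58, 8.78 and 8.503 in order of dose, and Slamf1, which encodes CD150, read 5.24, 4.75 and 4.84. Mecom and Hlf went the other way from Slamf1. They were 0.49 and 0.40 higher at 0.02 Gy and 0.39 and 0.67 higher at 2.5 Gy than at 0 Gy. Of 7 genes selected against in the sort, 5 were measured and none past the minimum was 2-fold apart. Cd48 lay below the minimum, and Flt3, which encodes Flk2, read 4.601, 4.95 and 4.93 in order of dose. Finding none in lists this small is near the background, since 0.578% to 1.44% of all genes past the minimum were 2-fold apart per comparison and direction. The erythroid list, measured for 2 of 4 symbols, had a log2 summed level of 6.02, 5.67 and 6.02 in order of dose. Markers of proliferating cells, measured for 5 of 6 symbols, had a log2 summed level of 8.52 at 0 Gy, 8.70 at 0.02 Gy and 8.82 at 2.5 Gy. Their median at 2.5 Gy against 0 Gy was 0.32, with 5 of 5 above 0. It was 0.37 for the 20 histone genes and 0.02 for all genes past the minimum, of which 53.4% were above 0. Mki67, Top2a and Ccna2 are also in the S phase list, whose 25 genes past the minimum had a median of 0.03, with 15 above 0. The part of proliferating cells in the histone values was not tested. Myeloid markers, measured for 4 of 5 symbols, had a log2 summed level of 7.85 at 0 Gy, 8.87 at 0.02 Gy and 9.08 at 2.5 Gy. Of these, S100a8 and S100a9 were at least 2-fold higher on both irradiated arrays. Mpo and Elane differed from 0 Gy by 0.16 and 0.94 at 0.02 Gy and by 0.70 and 0.12 at 2.5 Gy. Itgam and Ly6g, myeloid genes among those selected against, differed by 0.42 and −0.73 at 0.02 Gy. At 2.5 Gy they differed by 0.01 and −0.85, and Ly6g lay below the minimum. The unirradiated array was the lowest for 9 of the 20 histone genes, or 45%, against 37.4% of all genes past the minimum. Among the 20 histone genes, H1f2, H2ac1, H2ac6, H3c10 and H4c9 read higher in order of dose. How many genes at large have that order was not counted, so no trait of the histone genes can be read from it. Members of the myeloid and proliferating sums differed in their order. S100a9, Mpo, Mki67 and Cdk1 rose in order of dose. S100a8, Elane, Top2a and Birc5 were highest at 0.02 Gy, and Ccna2 was lowest there. The part of myeloid cells in the histone values was not tested. Lymphoid markers lay below the minimum on average for both of the 2 measured, and the 4 male germ cell markers had a log2 summed level of 7.35, 7.15 and 7.48 in order of dose. Over all probe sets the arrays correlated at 0.957 to 0.965, across genes, which are not independent replicates.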

How the data were processed

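The authors deposited log2 values of 25206 probe sets on 3 arrays; Partek is named without version or role, per the submitters' processing notes. How the arrays were background-corrected, normalized and summarised is not given in the sources used, and the log2 scale was read from the values (1.55 to 12.4). Probe sets carry Entrez identifiers, and 23185 had a symbol in the platform annotation table; the other 2021 are not used here.

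Histone genes were found by symbol. Differences of log2 values were taken between arrays, and genes were counted at 2-fold; a minimum at the median of named genes (4.55) was applied to the mean over arrays. With 1 array per group no test was possible, and the number of arrays limits the precision. The counting step was tested on simulated data.

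The members and lists were chosen with earlier results of these data known. Values in full went to the 3 genes of highest mean per class, genes at least 2-fold apart, the 4 widest of each related list, and 5 fixed genes (Slbp, Npat, Asf1b, Pcna, Ccne2); genes outside this, including H1f1, H1f3, H2ac6, H2ac21 and the paired genes, were chosen after their values were seen. Alternatives were quantile normalization, centring each array on its median, dropping the minimum or raising it to the 75th percentile, a 1.5-fold size, and leaving out the 6 germ-cell or replication-independent genes; a minimum on both arrays was added after seeing the data. Promoters came from RefSeq (GRCm38.p6). No protein sequences were used here, so the planned comparison of histone proteins was not run. Python 3.11.15, numpy 2.4.6, pandas 2.3.3 and matplotlib 3.10.9 were used.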

Additional observations from a re-analysis of the deposited data

How the results depend on the processing

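No paired analysis was possible because a dose is a single array here and nothing was tested. Over the 3 comparisons, 60 alternative values of the histone medians and 2-fold counts were computed, and 48 kept their direction and stayed within 0.1 of the median or 1.5 times the count. The 48 take in counts of 0 genes 2-fold lower that stayed at 0, so they say little of how stable the medians were. Medians were compared with the main histone median only, not with the median of all genes. For 0.02 Gy minus 0 Gy the main median was 0.097, against 0.039 for all genes. With the minimum at the 75th percentile it kept its direction, but at 0.020 it lay below the 0.115 of all genes so kept. Without a level minimum, the histone medians were −0.012 (0.02 Gy minus 0 Gy, direction turned), 0.036 (2.5 Gy minus 0 Gy) and 0.042 (2.5 Gy minus 0.02 Gy). Those of all genes were −0.018, −0.021 and 0 in the same order. After quantile normalization the histone medians were −0.0087 for 0.02 Gy minus 0 Gy, direction turned, and 0.25 for 2.5 Gy minus 0 Gy. Those of all genes were −0.0043 and −0.011. With the minimum at the 75th percentile, the 2.5 Gy minus 0.02 Gy median turned to −0.042, against −0.019 for all genes so kept. In that comparison 0 of 15 genes were 2-fold higher (1.45% of all genes so kept). For 2.5 Gy minus 0 Gy, 3 of 15 were 2-fold higher (1.45%). Fewer genes were counted at this setting. At 1.5-fold, 4 of 20 genes were higher for 0.02 Gy minus 0 Gy (7.50% of all genes past the minimum), 1 was lower for 2.5 Gy minus 0 Gy (3.44%), and 4 were higher for 2.5 Gy minus 0.02 Gy (5.74%). With the minimum on both arrays, chosen after seeing the data, 1 of 19 was higher for 2.5 Gy minus 0.02 Gy (0.93% of all genes so kept). Class medians turned in direction without a minimum: for 0.02 Gy minus 0 Gy, H1 to −0.14, H2B to −0.046, H3 to 0.12 and H4 to −0.090; for 2.5 Gy minus 0 Gy, H1 to −0.065, H3 to −0.0065 and H4 to −0.13; for 2.5 Gy minus 0.02 Gy, H2B to 0.046 and H3 to −0.089. After quantile normalization the H2A median for 0.02 Gy minus 0 Gy turned to −0.10. Apart from settings that count fewer or more genes, the cause was not tested. With 1 array per dose and unknown signal over background, differences of low genes are the least certain.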
